A study of Mus musculus with 6 samples.

Results

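The cytosolic ribosomal protein genes encode the protein parts of the large (Rpl) and small (Rps) subunits of the ribosome, and were read here by 100 probe sets for 46 genes, of 45037 probe sets on the array. Members were all probe sets annotated to exactly 1 gene symbol made of Rpl or Rps, a number and at most 1 further letter, or to Rplp0, Rplp1, Rplp2 or Rpsa. Rps6 kinases and pseudogenes were left out. Of the 46 genes, 24 belong to the large and 22 to the small subunit, with 44 and 56 probe sets. A further 110 probe sets carry several symbols, at least 1 of which matches, mostly beside pseudogenes of the same gene, and are described only as a group. Rplp1, Rpl3, Rpl5, Rpl10 and Rpl10l have no single-symbol probe set in the annotation used here.

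The samples are ALDH-positive and ALDH-negative primary ovarian surface epithelium cells of virgin FVB/N females of 8 weeks, with no transgene or deletion named in the labels. Both fractions were cultured for 24 hours, incubated with ALDEFLUOR, whose product marks cells by their aldehyde dehydrogenase activity, and separated by flow cytometry. The ovaries of 10 mice were pooled, and 3 such pools were each split into both fractions, with 1 array apiece and 6 arrays in all. The comparison asks which genes differ between cells of high ALDH activity and the other cells of the same pool.

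Ribosomal proteins are made in every cell and assemble with ribosomal RNA in the nucleolus. Their mRNAs are short and abundant. In mammals most begin with a C followed by a run of pyrimidines, the terminal oligopyrimidine tract, through which growth signalling by mTOR controls their translation. Processed pseudogenes of these genes are numerous, so that array probes can read more than 1 locus, and signals of single members are uncertain in that respect.

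Promoter sequence was examined because of the pyrimidine tract with which most such mRNAs begin. A link between these sequences and the signals was not tested. Of the 46 genes, 40 had an entry in the RefSeq promoter table (build GRCm38.p6), which holds 250 bases before and 50 after each start. Each gene was read at the listed start nearest to its annotated 5′ end. The strand that reads as the RNA was searched for an unbroken run of at least 8 C or T. Such a run, touching the 20 bases on either side of the start, was present in 20 of the 40. It was present in 20.1% of 17492 protein-coding genes. The ETS family motif CCGGAAG, searched on both strands, also stood in 20 of the 40, and in 11.91% of all. AAGATGG, bound by YY1, likewise on both strands, stood in 7 (17.5%, and 6.35% of all). The TATA box TATAAA stood in 5 (12.5%, and 13.34% of all). CCGGAAG and AAGATGG can share the letters AAG, and a match describes letters only. The sequences of 6 genes, 5′ to 3′ from 70 bases before to 30 after the start, are given for the 3 genes with an entry whose difference between fractions was largest (Rplp2, Rpl4, Rps27l), then the 3 whose difference was nearest 0 (Rps2, Rpl7a, Rps9). They were chosen after their values were seen. The start used lies 1462 bases from the annotated 5′ end of the gene in Rps27l, 1942 in Rps2, 122 in Rpl7a and 87 in Rps9, and at that end in Rplp2 and Rpl4. Capitals mark the longest C and T run near the start, and in Rps27l the first of 2 runs of equal length.
Rplp2, chr7:141447581-141447680, plus strand: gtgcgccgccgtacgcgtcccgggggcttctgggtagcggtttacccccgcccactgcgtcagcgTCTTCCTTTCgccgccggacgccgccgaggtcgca
Rpl4, chr9:64173317-64173416, plus strand: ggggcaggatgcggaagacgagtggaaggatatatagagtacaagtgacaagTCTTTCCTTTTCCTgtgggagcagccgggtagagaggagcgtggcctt
Rps27l, chr9:66946016-66946115, plus strand: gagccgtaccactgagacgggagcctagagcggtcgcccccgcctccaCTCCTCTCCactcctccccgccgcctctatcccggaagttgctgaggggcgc
Rps2, chr17:24719993-24720092, plus strand: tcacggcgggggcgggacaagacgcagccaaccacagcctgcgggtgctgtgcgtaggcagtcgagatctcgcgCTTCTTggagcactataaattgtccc
Rpl7a, chr2:26910737-26910836, plus strand: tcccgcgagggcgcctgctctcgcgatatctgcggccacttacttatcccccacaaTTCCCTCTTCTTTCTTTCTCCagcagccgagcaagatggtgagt
Rps9, chr7:3703971-3704070, plus strand: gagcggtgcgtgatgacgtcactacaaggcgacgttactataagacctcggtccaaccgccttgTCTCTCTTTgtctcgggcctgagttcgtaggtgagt
The longest run had 10 bases in Rplp2, 14 in Rpl4 and 9 in Rps27l, against 6 in Rps2, 21 in Rpl7a and 9 in Rps9. Long runs thus occurred both among the 3 largest differences and among the 3 nearest 0. These differences are those of the probe set standing for each gene. The other tested probe sets of Rps9 differed by 1.74 and 2.09.

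Signal values are on a log2 scale after quantile normalization, which gives each array the same distribution of values. The library of ALDH-negative cells from pool 2 differed most, with correlations of 0.561 to 0.687 to the rest, which reached 0.845 to 0.974 among themselves. On that array 18S ribosomal RNA read 5.80 as deposited, against 8.66 to 12.30 elsewhere. Beta-actin read 5.03 there at its 3′ control, against 9.56 to 11.04, and the spiked control BioC read 10.02, against 7.87 to 8.73. In pool 3 the 5′ control of Gapdh was low, with 5.20 for ALDH-positive and 6.63 for ALDH-negative cells, while the remaining arrays had 7.92 to 10.30. All 12 surface epithelium and mesothelium markers were higher in ALDH-positive cells of every pool. Their linear signals summed to 2440 to 3180 for ALDH-positive cells, against 280 to 526 for ALDH-negative cells, and none was dim throughout. The 6 measured markers of theca, interstitial and luteal cells, of 8 listed, summed to 3250 to 4830 for ALDH-positive cells, against 7100, 292 and 4540 for ALDH-negative cells of pools 1 to 3. Fibroblast and stroma markers summed to 994, 945 and 1150 in ALDH-positive cells, against 116, 315 and 399 in ALDH-negative cells. Granulosa markers, 7 of 8 measured, summed to 959 to 1510, against 2070, 148 and 1060, and leukocyte markers to 70.7, 48.5 and 319, against 64.3, 367 and 347. Endothelial markers summed to 45.9 to 111, against 59.6 to 91.8, erythroid ones to 13 to 18.8, against 12.2 to 56.5, and oocyte ones to 18.4 to 25.5, against 17.5 to 56.8, the highest of both on the pool 2 array. Such sums follow the brightest markers. Kdr, the brightest endothelial marker in ALDH-positive cells, was higher there in all pools. Emcn, Eng and Tek were lower in all pools, and Pecam1 and Cdh5 varied. In pool 3 the brightest leukocyte marker was Csf1r (8.06, against 8.18). The part of these signals in the results below was not tested.

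Ribosomal protein genes were among the bright signals of these cells. A filter that removed the dimmest 40% of probe sets by mean, at a level of 2.73, kept 89 of the 100 member probe sets and 41 of the 46 genes. The median of the 89 was 10.34, 10.24 and 8.77 in ALDH-positive cells of pools 1 to 3, against 10.36, 7.20 and 8.00 in ALDH-negative cells. Over all 27022 tested probe sets, the array medians lay between 4.55 and 4.60. The 3 highest member medians were therefore both fractions of pool 1 and the ALDH-positive cells of pool 2, and the lowest was the ALDH-negative array of pool 2. In the values as deposited the same arrays were the 3 highest and the lowest, with 10.61, 10.54 and 8.93 in ALDH-positive and 10.60, 5.99 and 8.02 in ALDH-negative cells. Signal levels of different probe sets depend on their probes and are not compared as amounts of RNA.

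**Figure D1:**
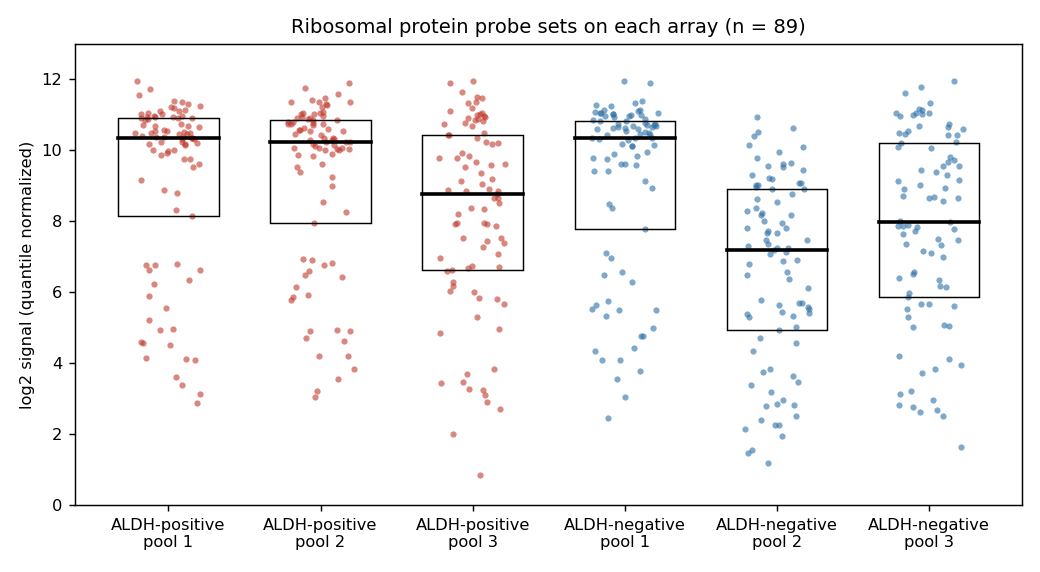
Log2 signal (vertical axis) of the 89 tested ribosomal protein probe sets on each of the 6 arrays, with points for probe sets, a thick line at the median and a box from the lower to the upper quartile. The ALDH-negative array of pool 2 has the lowest median, 7.20, and both arrays of pool 3 spread more widely than those of pool 1.

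The members also spread differently within arrays. The range between the quartiles was 2.76, 2.89 and 3.81 in ALDH-positive cells of pools 1 to 3, against 3.06, 3.96 and 4.35 in ALDH-negative cells. In pool 3, 61 of the 89 read below pool 1 in ALDH-positive cells and 63 in ALDH-negative cells, with median gaps of -0.57 and -0.93. Over all tested probe sets these gaps were 0.08 and 0.15. The lower signal in pool 3 was thus seen in both fractions, beside the low Gapdh 5′ control there, whose part was not tested.

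No ribosomal protein probe set passed the test between fractions. In limma with the pool as a block, the lowest adjusted p of a member was 0.895. The share called over all probe sets was 0% in either direction. The epithelium marker Bnc1 differed by 5.47, 5.27 and 5.63 in pools 1 to 3 without overlap, yet had a limma adjusted p of 0.765. None of the 12 surface epithelium and mesothelium markers passed, so the lack of calls says little about the members. At an unadjusted p under 0.05, 2 of the 89 members were higher (2.25%, against 2.04% of all probe sets) and 0 were lower (against 0.403%), so that the members' share was near the background. Amounts per cell and numbers of cells cannot be told apart in such bulk samples. The number of arrays limits the precision of every value here. Each SE given below is limma's, moderated across all tested probe sets, and is not the spread of that gene alone.

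The paired differences, ALDH-positive minus ALDH-negative, were nevertheless mostly above 0. In the mean of the pools 79 of the 89 members lay higher and 10 lower, with a range of -0.997 to 3.96 and a median of 0.98, against -0.04 over all tested probe sets. Of all 27022 tested probe sets 13033 lay higher in the mean, and of the 4504 brightest 2882 did. The pools differed widely, with member medians of 0.03 in pool 1, 2.66 in pool 2 and 0.40 in pool 3. Over all tested probe sets the medians were -0.0055, 0.0631 and -0.0035. In pools 1 to 3, 46, 78 and 64 of the 89 members were higher, against 49.6%, 51% and 49.8% of all. Without pool 2 the member median was 0.20. The size of the overall median therefore came from the pool whose ALDH-negative array stood apart, on which 61 of the 89 members had their lowest signal. On that array 9479 of all 27022 tested probe sets were also lowest, and 2352 of the 4504 brightest.

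Within pool 1 the members of both fractions were close, with an SD of the differences of 0.33 and a range of -0.69 to 1.12. In pool 3 the SD was 0.89, and in pool 2 it was 2.27. Bright probe sets in general shared the shift of pool 2. Among the brightest 10% of all probe sets the median differences were -0.01, 1.10 and -0.05 in pools 1 to 3, while the 70 members among these had 0.01, 2.84 and 0.42. No member read over 1 lower in pool 1 and 1 read over 1 higher there, against 2.66% and 4.96% of all probe sets. In pool 2, 69 read over 1 higher and 6 over 1 lower (35.8% and 34% of all), and in pool 3, 17 and 4 did (12.2% and 13.4% of all).

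**Figure D2:**
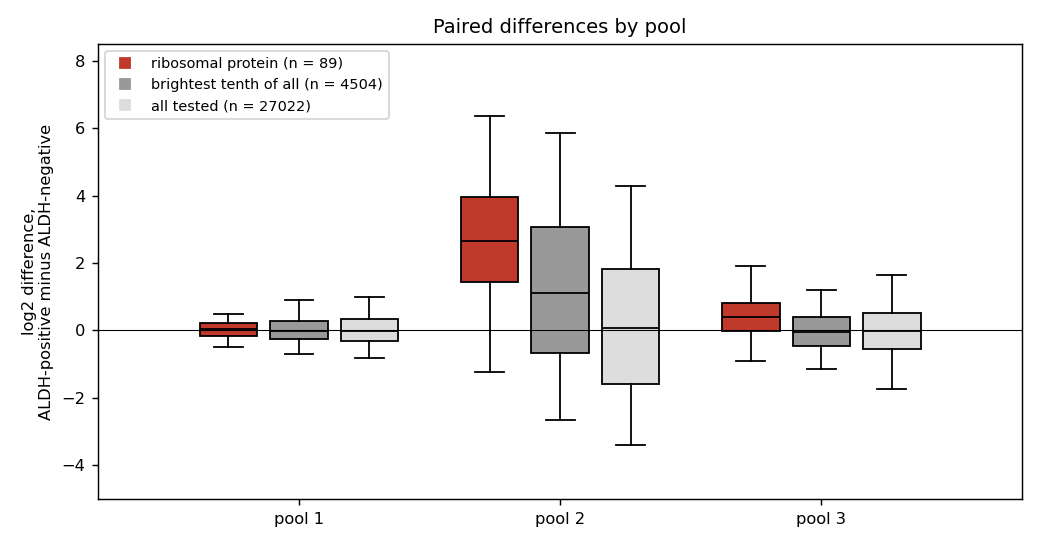
Log2 difference between fractions (vertical axis) in each pool, for the 89 ribosomal protein probe sets, the 4504 brightest and all 27022 tested, with boxes at the quartiles, a line at the median and whiskers from the 5th to the 95th percentile. The members sit near 0 in pool 1 (median 0.03), slightly above it in pool 3 (0.40) and well above it in pool 2 (2.66).

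Direction was shared by more members than by probe sets at large. Of the 89, 29 were higher in all 3 pools (32.6%, against 11.5% of all tested), and 0 were lower in all 3 (against 10.8%). Counting 1 probe set per gene, the brightest, 12 of 41 genes were higher in all pools, against 11.3% of 12814 genes. Among the brightest 10%, 26 of 70 members were (37.1%, against 17.3%). Without pool 2, 34 of 89 were higher in both remaining pools (38.2%, against 25.7%) and 13 lower in both (14.6%, against 26.4%). Probe sets of 1 gene share transcripts, and no test over the members was made. Only 2 members had every ALDH-positive array above every ALDH-negative one (2.25%, against 3.49%), and 0 had the reverse (against 3.4%).

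How the data were scaled and which arrays entered moved the calls. With array weights 11 members passed the adjusted threshold (10.9% of all probe sets) and 20 the unadjusted one (24.5% of all). Without pool 1, 1 member passed the adjusted threshold (0.0259% of all), 17 the unadjusted one (7.26%), and 58 were higher in both remaining pools (27%). Without pool 3, 10 passed the unadjusted threshold (3.49%) and 36 were higher in both remaining pools (20% of all), and without pool 2, 1 passed it (4.56%). The values as deposited gave 9 (2.96%) and arrays centred on their median 8 (2.63%). With no filter (2.02%), no pool block (2.01%), the brightest 10% alone (1.38%) or without the ALDH-negative array of pool 2 (2.34%), 0 members passed the unadjusted threshold. Leaving out probe sets whose probes are shared between transcripts, 14 of 48 members were higher in all pools (11.2% of all).

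Members of both subunits lay mostly higher in the mean, beside 13033 of all 27022 tested probe sets. Of 40 tested probe sets of the large subunit 37 lay higher in the mean, with medians of -0.08, 2.49 and 0.27 in pools 1 to 3. For the small subunit 42 of 49 lay higher, with medians of 0.12, 2.73 and 0.48. Higher in all pools were 10 of the 40 and 19 of the 49, against 11.5% of all tested probe sets. A difference between the subunits was not tested.

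The stalk of the large subunit, which recruits elongation factors, is built from Rplp0, Rplp1 and Rplp2. Rplp2 read 11.72, 11.76 and 8.86 in ALDH-positive cells of pools 1 to 3, against 11.89, 2.96 and 7.79 in ALDH-negative cells. Its mean difference of 3.23 (SE 1.59, limma unadjusted p = 0.0786, adjusted p = 0.895) was the largest of the 41 genes, and it was 0.45 without pool 2. The groups overlapped, since the ALDH-negative cells of pool 1 gave the highest value. Rplp0, the scaffold of the stalk, read 10.38, 10.30 and 6.73, against 10.59, 6.81 and 6.51. It differed by 1.16 (SE 0.87), and by 0.00 without pool 2. Both genes were brighter in pool 1 than in pool 3 whatever the fraction.

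Rpsa, a small subunit protein also known as a laminin receptor, read 11.23, 11.43 and 11.21 in ALDH-positive cells, against 11.41, 9.53 and 10.61 in ALDH-negative cells. It differed by 0.78 (SE 0.71), with a negative value in pool 1 (-0.18) and positive ones in pools 2 and 3 (1.91 and 0.60). A dimmer probe set of Rpsa gave -0.997 (SE 0.72), the lowest difference of all members. The probe sets of this gene thus did not share a direction.

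Other large subunit genes with large differences followed pool 2. Rpl4 read 10.48, 10.35 and 11.06 in ALDH-positive cells, against 10.50, 4.57 and 11.06 in ALDH-negative cells, so that its fractions were level in pools 1 and 3. Rpl8 read 10.15, 10.06 and 6.62, against 10.37, 5.31 and 5.68. Rpl38, which in mouse embryos favours translation of Hox mRNAs, read 11.38, 11.36 and 10.87, against 11.29, 6.50 and 10.69. Their mean differences of 1.92, 1.82 and 1.71 shrank to -0.01, 0.36 and 0.13 without pool 2. Rpl14 read 6.77, 6.77 and 7.40, against 6.29, 2.27 and 7.33, a difference of 1.68 (SE 0.97) and of 0.27 without pool 2, with the lowest value under the filter level. Each of these 4 genes was lowest on the ALDH-negative array of pool 2.

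Rpl11, which with Rpl5 and 5S ribosomal RNA can bind the p53 regulator Mdm2, read 10.50, 10.34 and 9.19 in ALDH-positive cells, against 10.44, 7.81 and 9.17 in ALDH-negative cells. Its differences of 0.07 and 0.03 in pools 1 and 3 were small beside that of pool 2 (2.53). Rpl10a, a protein of the L1 stalk, read 10.90, 10.74 and 10.69, against 10.98, 9.21 and 10.24. Rpl35, near the exit of the peptide tunnel, read 10.97, 11.23 and 11.36, against 11.04, 9.46 and 10.74. Their mean differences were 0.87, 0.63 and 0.77, each with an SE near the value itself (0.76, 0.68 and 0.69). Rpl41, the smallest of the family, read 11.95, 11.89 and 11.48, against 11.95, 9.56 and 10.99. Its exact tie in pool 1 arose because quantile normalization gives the brightest probe set of every array the same value.

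Rpl39, which lines the peptide tunnel, was 1 of 3 genes with a negative mean. It read 5.56, 5.86 and 5.81 in ALDH-positive cells, against 5.33, 7.47 and 5.97 in ALDH-negative cells. Here the ALDH-negative array of pool 2 was the highest of all 6. The difference of -0.52 (SE 0.69) became 0.03 without pool 2.

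**Figure D3:**
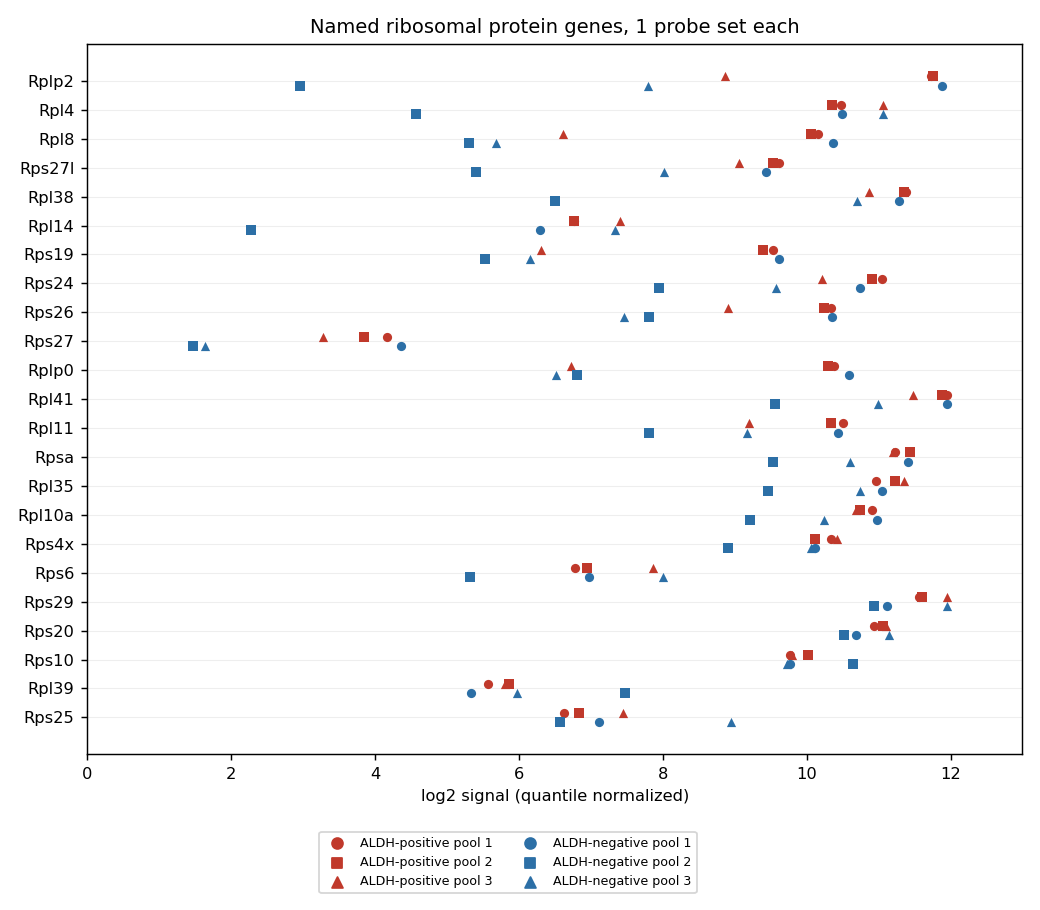
Log2 signal (horizontal axis) of 23 named ribosomal protein genes, 1 probe set each, ordered by their mean difference, with ALDH-positive cells above ALDH-negative cells in each row and a marker shape for each pool. The ALDH-negative value of pool 2 is the lowest of the 6 in 19 of the 23 rows, and over 2 below the next lowest in 5 (Rplp2, Rpl4, Rps27l, Rpl38 and Rpl14). Some of the 23 were named for a large difference or a small p, which bears on this count. That array was lowest in 29 of the 41 tested member genes and in 4260 of all 12814 genes tested.

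Some small subunit genes were higher in ALDH-positive cells of all 3 pools at the tested probe set standing for the gene. These were Rps27l, Rps24, Rps3, Rps4x, Rps7, Rps14 and Rps15. Every tested probe set of Rps3, Rps14 and Rps15 was higher in all 3 pools, which was not so for Rps27l, Rps24, Rps4x and Rps7. Rps27l, a close paralog of Rps27 whose human counterpart is induced by p53, read 9.62, 9.53 and 9.06 in ALDH-positive cells, against 9.43, 5.40 and 8.02 in ALDH-negative cells. The pool differences were 0.19, 4.13 and 1.04, with a mean of 1.79 (SE 0.89, limma unadjusted p = 0.0811, adjusted p = 0.895) and 0.61 without pool 2. The groups overlapped, because ALDH-negative cells of pool 1 lay above ALDH-positive cells of pool 3. Its other tested probe sets gave 2.25 (SE 0.99) and 2.50 (SE 1.10), and 0.80 and 0.88 without pool 2. All 3 lay higher in ALDH-positive cells of pools 2 and 3, and 1 of them lay lower in pool 1 (-0.17).

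Rps24, needed for maturation of 18S ribosomal RNA, read 11.05, 10.91 and 10.21 in ALDH-positive cells, against 10.74, 7.95 and 9.57 in ALDH-negative cells. The pool differences of 0.31, 2.96 and 0.65 gave a mean of 1.31 (SE 0.76), and 0.48 without pool 2. Of its 6 tested probe sets 4 were higher in every pool. In 1 of these the fractions did not overlap, with 10.93, 10.95 and 10.44 against 10.12, 7.66 and 9.67. The mean difference of that probe set was 1.62 (SE 0.76), and 0.79 without pool 2.

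The other member without overlap was Rps4x, the X-linked S4 protein, at 10.34, 10.12 and 10.43 in ALDH-positive cells, against 10.11, 8.91 and 10.06 in ALDH-negative cells. The lowest ALDH-positive value exceeded the highest ALDH-negative one by less than the spread within either fraction, and the mean difference was 0.60 (SE 0.65). A dimmer probe set of Rps4x gave -0.98, with 8.19 on the ALDH-negative array of pool 2 and 3.79 to 5.04 elsewhere.

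Rps26, which contacts mRNA in the exit channel, read 10.34, 10.24 and 8.91 in ALDH-positive cells, against 10.35, 7.81 and 7.47 in ALDH-negative cells, a mean difference of 1.29 (SE 0.73) and 0.71 without pool 2. Rps19, the first gene linked to Diamond-Blackfan anaemia in humans, read 9.54, 9.39 and 6.30, against 9.62, 5.53 and 6.15. Rps6, the phosphorylated target of the S6 kinases, read 6.78, 6.95 and 7.87, against 6.97, 5.33 and 8.00. For Rps19 the mean difference was 1.31 (SE 0.92), which without pool 2 became 0.03, and for Rps6 it was 0.44 (SE 0.70), which became -0.16. Fractions of the same pool were thus nearly level for Rps19 and Rps6 in pools 1 and 3, though pool 3 read far below pool 1 for Rps19.

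Rps29 and Rps20 were bright on every array at the probe set of highest mean. Rps29 read 11.56, 11.60 and 11.95 in ALDH-positive cells, against 11.11, 10.93 and 11.95 in ALDH-negative cells. Rps20 read 10.94, 11.06 and 11.11, against 10.69, 10.52 and 11.15. Their differences of 0.37 (SE 0.64) and 0.25 (SE 0.64) stayed small in pool 2 as well (0.67 and 0.54). The other 2 probe sets of Rps29 differed by 3.07 and 2.73 in pool 2, and 2 dimmer ones of Rps20, the second of them untested, by 1.86 and 2.44, so that the small gap was not shared by all probe sets of these genes. The tie of Rps29 in pool 3 lies at the same upper value as that of Rpl41.

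Rps25, which is needed for initiation at some viral internal entry sites, had the lowest mean difference of the 41 genes. It read 6.63, 6.83 and 7.44 in ALDH-positive cells, against 7.12, 6.57 and 8.95 in ALDH-negative cells. The difference was -0.58 (SE 0.68), and -0.99 without pool 2. The order of the fractions was reversed in pool 2 (0.26).

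The tissue-restricted paralogs were dim. Rpl3l, made in striated muscle, read 2.03, 2.01 and 2.22 in ALDH-positive cells, against 1.85, 3.16 and 2.06 in ALDH-negative cells. Rpl39l, made mainly in the testis, read 1.13 to 1.45, against 1.30 to 2.04. Rps4l read 3.06, 4.00 and 1.82, against 2.18, 2.05 and 1.54. These 3 genes had mean levels under the filter and were not tested, nor were the only probe sets of Rpl37 (0.82 to 1.55 over the 6 arrays) and Rps16 (0.78 to 1.53). The 6 other untested probe sets belong to Rpl27a, Rps3, Rps6, Rps18 and Rps20, genes that also have a tested probe set, and their mean differences lay between -0.41 and 0.59. Rps27, the counterpart of Rps27l, was read by a dim probe set at 4.17, 3.84 and 3.27, against 4.36, 1.47 and 1.63, a difference of 1.27 (SE 0.74).

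Probe sets of the same gene often disagreed. Of the 21 genes with at least 2 tested probe sets, 13 had the same sign in all of them, every one higher in ALDH-positive cells, and 8 had unlike signs. The widest spans of mean level between probe sets of 1 gene were in Rpl35 (2.86 to 10.80), Rps20 (3.63 to 10.91) and Rpl41 (4.14 to 11.30). For a gene of this family the choice of probe set therefore bears on the value.

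Rps10, which sits near the mRNA entry and is ubiquitinated on stalled ribosomes, shows this in full. The probe set of highest mean, which stands for the gene, read 9.77, 10.02 and 9.80 in ALDH-positive cells, against 9.77, 10.64 and 9.72 in ALDH-negative cells, a difference of -0.18 (SE 0.64). Another read 10.38, 10.07 and 6.76, against 10.19, 1.20 and 3.94. Its difference of 3.96 (SE 1.48, limma unadjusted p = 0.0298, adjusted p = 0.895) had pool values of 0.19, 8.87 and 2.81. The value of 1.20 lies below the filter level of 2.73 and was not shown to exceed background, so that the sizes in pool 2 and in the mean are uncertain. Both probe sets were level between fractions in pool 1, and they parted in pools 2 and 3. A second probe set of Rps15, a protein of the small subunit head, was the other member with an unadjusted p under 0.05. It read 9.88, 9.89 and 6.69, against 9.41, 4.35 and 5.08, a difference of 2.54 (SE 1.02, limma unadjusted p = 0.0393, adjusted p = 0.895).

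Rps9, chosen with Rps15 after their values were seen, had probe sets of unlike pattern. A probe set of Rps9 read 10.31, 10.16 and 2.01 in ALDH-positive cells, against 10.62, 3.85 and 2.78 in ALDH-negative cells. It was thus dim in both fractions of pool 3, while another probe set of Rps9 read 6.64, 6.50 and 7.96, against 5.51, 7.68 and 7.50. The third read 5.22, 5.92 and 5.84, against 5.63, 1.95 and 3.14, a difference of 2.09 (SE 0.92) and of 1.14 without pool 2. Which transcript parts these probe sets read was not examined here.

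**Figure D4:**
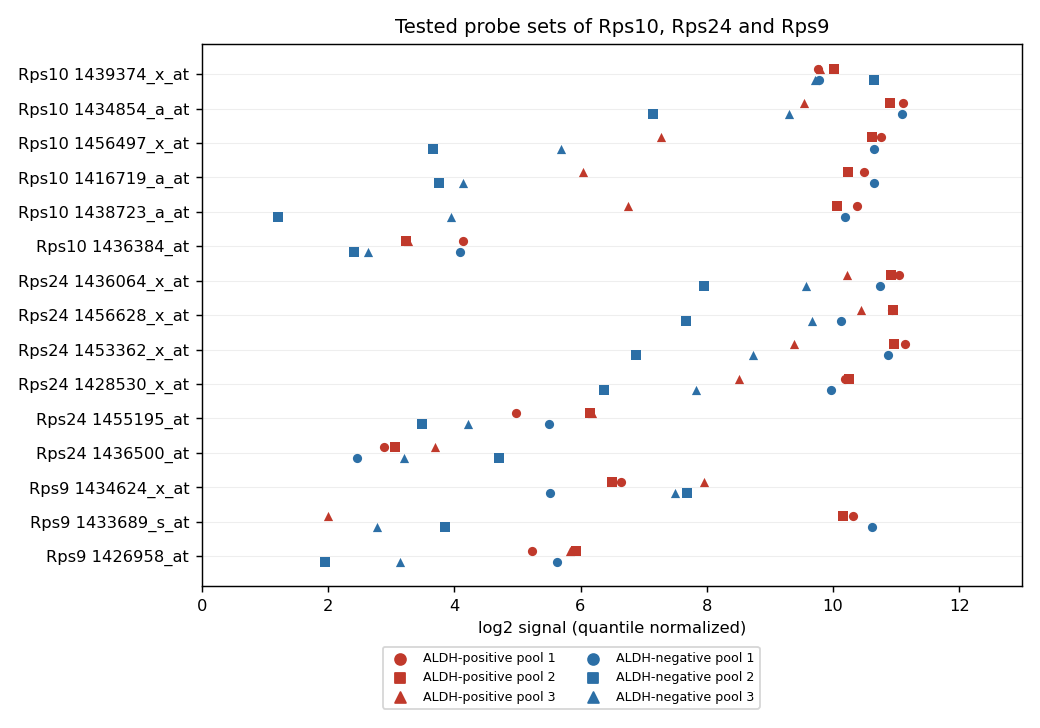
Log2 signal (horizontal axis) of the tested probe sets of Rps10, Rps24 and Rps9, with ALDH-positive cells above ALDH-negative cells in each row and a marker shape for each pool. Within Rps10 the ALDH-negative value of pool 2 runs across probe sets between 1.20 and 10.64, while pool 1 values of both fractions stay together.

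The members were also split by probe class. The Affymetrix suffix tells how specific a probe set is, with x and s marking probes shared between transcripts. Of 41 tested members with such a suffix, 38 lay higher in the mean (median 0.94). Of 26 with the suffix a, which marks variants of 1 gene, all 26 did (median 1.26), and of 22 with no letter 15 did (median 0.70). Among tested probe sets of any gene and class, 13033 of 27022 did. No test of the classes was made. The 105 tested probe sets with several symbols had a median of 0.61, with -0.02, 1.46 and 0.13 in pools 1 to 3. Of those, 18 were higher in all pools (17.1%, against 11.5% of all tested) and 1 was lower in all (0.952%, against 10.8%).

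Other genes of the translation apparatus were read from lists of related genes, 1 probe set each. No gene of these lists passed the adjusted threshold. As background for the counts below, 5893 of all 12814 genes tested lay higher in the mean. Of these 12814 genes 11.3% were higher in all pools and 11.4% lower in all. Of 8 translation elongation genes 8 lay higher in the mean and 3 in all pools, with pool medians of 0.14, 4.11 and 0.42. Of 25 initiation genes 20 lay higher and 5 in all pools, with pool medians of 0.03, 2.80 and -0.09. Both lists thus shared the pool 2 shift of the ribosomal proteins, and were near 0 in pool 1.

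Eef1a1, which delivers aminoacyl-tRNA to the ribosome, read 10.78, 10.76 and 10.90 in ALDH-positive cells, against 10.91, 6.11 and 10.78 in ALDH-negative cells. Eef2, the translocase, read 10.12, 10.09 and 9.12, against 10.25, 8.48 and 8.67. Pabpc1, which binds poly(A) tails, read 10.00, 9.73 and 10.06, against 9.69, 3.40 and 9.64. Their differences were 1.55, 0.64 and 2.35, and -0.01, 0.16 and 0.36 without pool 2. Fau, the precursor of the S30 protein, read 9.69, 9.52 and 6.76, against 10.05, 8.02 and 6.81, a difference of 0.37 and of -0.20 without pool 2. Of 4 close relatives outside the symbol rule, all 4 lay higher in the mean, among them Rpl22l1, the paralog of Rpl22, at 1.76 (SE 1.04) and Rpl7l1 at 1.90 (SE 0.95). Without pool 2 these were 0.19 and 0.54.

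Genes that build ribosomes differed less. Of 38 biogenesis genes 23 lay higher and 15 lower in the mean, with 5 in all pools each way and pool medians of -0.07, 0.89 and 0.01. Fbl, the methyltransferase of ribosomal RNA, differed by -0.23 (SE 0.63), and Npm1, a nucleolar chaperone, by 1.01 (SE 0.70). Of 76 mitochondrial ribosomal protein genes 48 lay higher and 28 lower, with pool medians of -0.18, 1.16 and 0.01, and 1 had an unadjusted p under 0.05. That gene, Mrps21, differed by 2.44 (SE 0.98, limma unadjusted p = 0.0397, adjusted p = 0.895) and by 1.41 without pool 2. The 41 cytosolic genes had pool medians of -0.01, 1.91 and 0.21 in the same count. Differences between these lists were not tested.

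**Figure D5:**
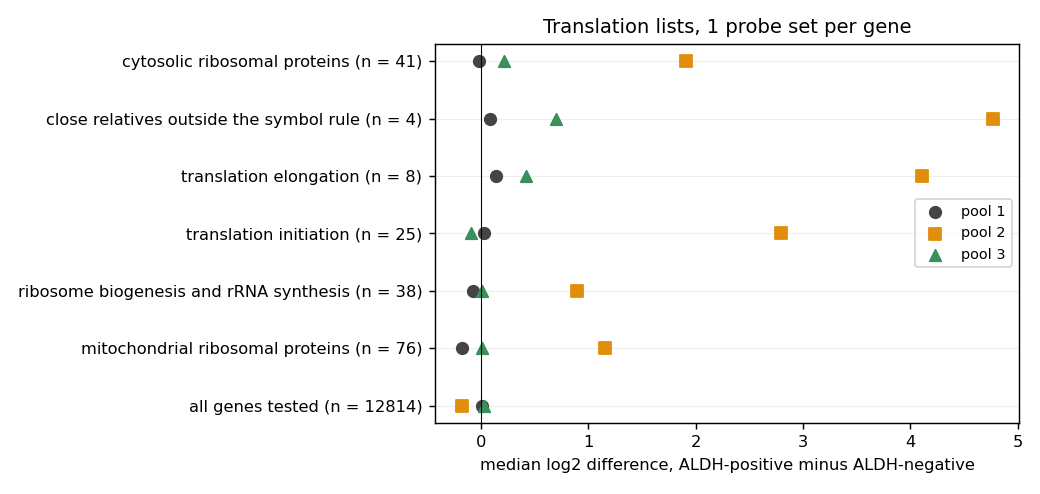
Median log2 difference between fractions (horizontal axis) in each pool for the cytosolic ribosomal protein genes, related translation lists and all genes tested, 1 probe set per gene. In every list shown the pool 2 median is the highest of the 3, from 0.89 in ribosome biogenesis to 4.77 in the close relatives, while it is -0.18 over all genes.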

How the data were processed

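RNA of sorted cells was isolated with the mirVana kit, amplified by Ovation Pico WTA and hybridized to Affymetrix mouse arrays of 45101 probe sets, per the labels' protocols. The deposited values, 1 per probe set and array, lie between 0.035 and 13.06 and are treated as log2 signal. How the authors made these log2 values (summarisation, background correction, normalization) and their scale are stated neither in the labels nor in the file header, so the scale rests on the range. Because the array medians differed by 0.46, over a limit of 0.2, the arrays were quantile normalized without 64 control probe sets. The lower 40% by mean were removed, which left 27022 probe sets.

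Symbols came from GEO's platform annotation. It gave 1 symbol for 34945 probe sets, several for 932 and none for 9160. Of the single symbols 34754 matched the RefSeq table (GRCm38.p6) by identifier and 0 changed. For gene counts the probe set of highest mean stood for its gene.

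The test was limma 3.58.1 in R 4.3.3, two-sided, blocked by pool, with p-values adjusted by Benjamini-Hochberg across every tested probe set at 0.05. The pairing of pools comes from the paired analysis that the series design names. Which arrays form a pair was taken from the replicate number in the sample titles. As a check, the 2 arrays of a pool, each taken as a deviation from the mean of its fraction, correlated at 0.38, -0.19 and 0.35 in pools 1 to 3, and arrays of different pools at up to 0.42. The check thus did not set the pairs apart from other arrays. The samples are 3 pools. The p-values set each mean difference against a spread between pools that limma moderates across probe sets. Each SE is thus pulled toward a common value and is not the gene's own spread. The pool differences of Rps2 had an SD of 0.10 and an SE of 0.63, those of Rplp2 an SD of 4.86 and an SE of 1.59. The fit was tested on simulated data.

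Members, lists and tests were chosen with earlier results of these data known. Named genes are the stalk genes and Rpsa, the paralogs Rpl3l, Rpl10l, Rpl39l, Rps4l and Rps27l with their counterparts, and Rpl5, Rpl11, Rps6, Rps19 and Rpl10a. To these a rule added the genes of highest level (5), largest positive (5) and negative (up to 5) difference, smallest p (6) and widest span between probe sets (3). Related genes were a set list and the 2 of smallest p per list, some of which the text leaves out. Alternatives varied the normalization, filter, block, pools, array weights and probe classes.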

Additional observations from a re-analysis of the deposited data

How the results depend on the processing

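Members past the adjusted threshold numbered 0 in the setting reported and in all alternatives run but 2. Leaving out a pool gave 0 to 1, the call being the Rps10 probe set of largest difference without pool 1 (limma adjusted p = 0.0329). Array weights gave 11 (12.4%, against 10.9% of all probe sets), 9 higher and 2 lower, among them Rps25 at -1.25 (limma adjusted p = 0.0437), and outside the members Mrps21 at 2.47 (limma adjusted p = 0.00527). At an unadjusted p under 0.05 the count of 2 became 9 as deposited, 8 with arrays centred on their median, 20 with array weights, and 0 with no filter, with no replicate block, within the brightest 10% and without the ALDH-negative array of pool 2. Leaving out a pool gave 1 to 17. The block changed no other call. The 29 members higher in every pool became 34 to 58 when a pool was left out, the most without pool 1, and 14 of 48 without the suffixes x and s. The median of 0.98 ranged from 0.20 to 1.48 when a pool was left out. It was 0.36 with array weights, 0.28 without the ALDH-negative array of pool 2, 1.39 as deposited and 1.56 median-centred, where the median of all probe sets was 0.22. The settings of the brightest 10% and without that array were chosen after seeing the data, and leaving out that array also drops the pool term. Of 38 named genes, 8 changed sign in some alternative. As deposited, Rpl39 was 0.0009, Rps10 0.16 and Fbl 0.42. Median-centred, Rpl39 was 0.17, Rps25 0.0358, Rps10 0.33 and Fbl 0.59. When a pool was left out, the range was -0.8908 to 0.0321 for Rpl39, -0.1607 to 0.7493 for Rps6, -0.0127 to 2.8886 for Rpl4, -0.3117 to 0.0381 for Rps10, -0.2012 to 0.727 for Fau and -0.0057 to 2.3834 for Eef1a1. Without the ALDH-negative array of pool 2, Rpl39 was 0.0899, Rps6 -0.28, Rpl4 -0.15, Rps10 0.12 and Eef1a1 -0.0314. With array weights Rps6 was -0.0977, Rps10 0.0447 and Fau -0.0705. The cause was not tested.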
